A study of Mus musculus with 34 samples.

Results

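The canonical NF-kB pathway was followed here through 10 genes, chosen by name: the subunit genes Rela, Rel and Nfkb1, the classical inhibitor genes Nfkbia, Nfkbib and Nfkbie, the nuclear IkB genes Nfkbiz and Bcl3, and Tnfaip3 and Tnip3, which restrain signalling upstream. Each was represented by the probe set annotated to it alone. This gave 9 of the 10 genes, each with 1 probe set, among the 22180 genes measured, and Nfkb1 is not analysed here. The members and the lists of related genes were chosen with earlier results of these data known. Shares of all genes printed beside their counts are therefore a description and not a test.

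In resting cells NF-kB dimers are held in the cytoplasm by IkB proteins, and receptor signals through the IKK kinase lead to IkB breakdown and to dimer entry into the nucleus. The dimers then switch on genes for cytokines and survival factors, and also their own brakes, so that the level of the brakes is often read as a trace of recent signalling. In dendritic cells (DCs), the antigen-presenting cells that prime T cells, the pathway is known for its part in maturation.

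Expression was measured on Affymetrix Mouse Gene 2.0 ST arrays in DCs that were sorted from spleens of C57BL/6 mice. Sorted CD8+ and CD8- DCs of wild-type (WT) and Mst1/2-KO mice, which lack a pair of Hippo pathway kinases, were measured on 4 arrays per group. For total DCs there were 4 WT and 3 Mst1/2-KO arrays. In experiment 1, total DCs stimulated with anti-CD40, an antibody to a co-stimulatory receptor, came from Rag1-KO mice (4 arrays), which lack mature T and B cells, and from mice labelled as lacking both Rag1 and p38 (3 arrays). Experiment 2 has 2 stimulated Rag1-KO arrays, 1 stimulated WT array and 1 Rag1-KO array without stimulation. The sources used here do not give age, the Cre driver or cell type of a deletion, the dose and time of anti-CD40, or whether replicates are separate mice. Each p-value therefore measures only the spread between these arrays, which may be technical. For the total and sorted groups the labels name no stimulation.

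Values below are log2 signals, and a change is a difference of log2 signals with its standard error (SE). Levels can be compared only within an experiment, since the deposited values carry a separate constant for each probe set and experiment. A gene was called at an adjusted p under 0.05, from limma with Benjamini-Hochberg adjustment over all 22180 genes. In counts of listed genes, fell, rose, lower and higher mean called in that direction, while above or below 0 gives the sign alone. The array medians lay between 4.11 and 4.20, and the number of arrays limits the precision. Stk4, the gene of Mst1, changed by -0.86 ± 0.10 without Mst1/2 in CD8+ DCs (SE, limma adjusted p = 0.000166), by -0.77 ± 0.10 in CD8- DCs (0.000211) and by -1.09 ± 0.09 in total DCs (0.00154). Mapk14, a p38 gene, was not called lower in the cells labelled p38-KO (0.23 ± 0.14, adjusted p = 0.657). The sources used here do not place those probes on the gene, so this does not check the label. The labelled subsets carried their markers: all 10 CD8+ DC markers, Cd8a and Xcr1 among them, were called higher in WT CD8+ DCs, and 7 of 9 CD8- DC markers, such as Sirpa and Irf4, were called lower there, while Rbpj was called higher.

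Before the values, the promoters of the members that changed without Mst1/2 and that hold a match to the NF-kB consensus are shown, since these genes are known targets of the pathway they restrain. Each sequence is the 250 bases before the RefSeq gene start in GRCm38.p6, read 5′ to 3′ on the gene's strand, and capitals mark a match to the 10-base NF-kB consensus on either strand. Nfkbia lies at chr12:55492648-55492897 (minus strand), Tnfaip3 at chr10:19015411-19015660 (minus strand, the first of its 2 listed starts) and Tnip3 at chr6:65590148-65590397 (plus strand).
Nfkbia: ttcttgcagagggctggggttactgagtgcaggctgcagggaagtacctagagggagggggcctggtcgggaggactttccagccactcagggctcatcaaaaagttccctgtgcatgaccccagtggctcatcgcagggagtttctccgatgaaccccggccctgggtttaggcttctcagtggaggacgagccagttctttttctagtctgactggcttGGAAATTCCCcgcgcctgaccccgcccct
Tnfaip3: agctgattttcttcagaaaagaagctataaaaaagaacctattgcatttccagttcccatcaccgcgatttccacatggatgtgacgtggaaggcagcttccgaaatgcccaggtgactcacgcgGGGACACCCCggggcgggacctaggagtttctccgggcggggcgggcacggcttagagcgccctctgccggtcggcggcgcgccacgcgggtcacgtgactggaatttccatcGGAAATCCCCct
Tnip3: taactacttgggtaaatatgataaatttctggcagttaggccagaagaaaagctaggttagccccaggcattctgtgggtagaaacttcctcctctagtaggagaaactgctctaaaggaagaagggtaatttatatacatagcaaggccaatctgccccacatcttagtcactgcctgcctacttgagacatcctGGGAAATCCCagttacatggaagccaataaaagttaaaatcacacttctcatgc
The match in Nfkbia ends 19 bases before the start, those in Tnfaip3 end 115 and 2 bases before it, and the one in Tnip3 ends 44 bases before it. RefSeq promoters were matched for 8 of the 10 members. Of these, 5 held a match, with Rel and Nfkbie as the others, and Rela, Nfkbib and Bcl3 held none, nor did the other start of Tnfaip3. The consensus was found in 7.25% of all 32851 promoters of this length. A match is a description of the letters in this window and not a binding site shown by these data.

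The first comparison asked how the members differ between Mst1/2-KO and WT CD8+ DCs. Tnfaip3, the gene of the ubiquitin editor that damps receptor signals, fell 1.90-fold, Bcl3, a nuclear IkB protein that acts on target promoters, fell 1.73-fold, and Nfkbia, the gene of IkB alpha, fell 1.52-fold. All 9 measured members were below 0, with a median change of -0.39 against 0.00 over all genes. Without WT CD8+ replicate 1, the median was -0.24 and 8 of 9 were below 0. Of the 9, 3 were called lower and 0 higher, where 0.654% of all genes were called lower (0.888% called in either direction). The subunit genes Rela and Rel were not called.

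Tnfaip3 lay at 9.78, 9.44, 8.84 and 9.25 in WT CD8+ replicates 1 to 4 and at 8.32, 8.83, 8.03 and 8.43 in the Mst1/2-KO replicates. The highest Mst1/2-KO array (8.83) lay just under the lowest WT array (8.84), so the groups barely kept apart (-0.93 ± 0.19, adjusted p = 0.0227 from limma). Bcl3 was at 7.43, 7.01, 7.46 and 7.19 in WT and at 6.61, 6.29, 6.41 and 6.61 in Mst1/2-KO arrays. Every Mst1/2-KO array lay below every WT array (-0.79 ± 0.14, adjusted p = 0.00864 from limma). Nfkbia was at 9.94, 9.89, 9.61 and 9.67 in WT and at 9.32, 9.29, 8.91 and 9.18 in Mst1/2-KO arrays, again without overlap (-0.60 ± 0.11, adjusted p = 0.0132 from limma).

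Nfkbie, which encodes the IkB epsilon inhibitor, was at 9.06, 8.90, 8.75 and 8.99 in WT and at 8.16, 8.47, 8.52 and 8.45 in Mst1/2-KO arrays. Its groups did not overlap, but the change of -0.52 ± 0.12 fell just short of a call (limma adjusted p = 0.0502). It was called under quantile (adjusted p = 0.0339) and cyclic loess normalization (0.0416), with genes above the median gene only (0.0342), with a mean-variance trend (0.0284) and without WT CD8+ replicate 3 (0.0455). It was not called with the replicate block, in a fit of these groups alone, or without any other single array. Nfkbib, the third classical inhibitor gene, differed by -0.01 (95% interval -0.20 to 0.18). Nfkbiz, a nuclear IkB protein induced by Toll-like receptor signals, differed by -0.37 ± 0.18 (adjusted p = 0.503).

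Rel, the c-Rel subunit gene, differed by -0.35 ± 0.15 (limma adjusted p = 0.4), and its WT values included 1 high array (11.28, the others 10.60 to 10.70). Rela differed by -0.07 (95% interval -0.26 to 0.12). Tnip3, which encodes a binding partner of the Tnfaip3 protein, lay at 5.01 to 5.75 in WT and 4.79 to 4.94 in Mst1/2-KO arrays. Those groups did not overlap, yet the change of -0.39 ± 0.28 was not called (adjusted p = 0.686). Tnip3 had the lowest signal of the 9 members in these groups, not far above the array medians of 4.11 to 4.20. In all, 5 of the 9 members had groups that did not overlap, where 6.33% of all genes did so.

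**Figure D1:**
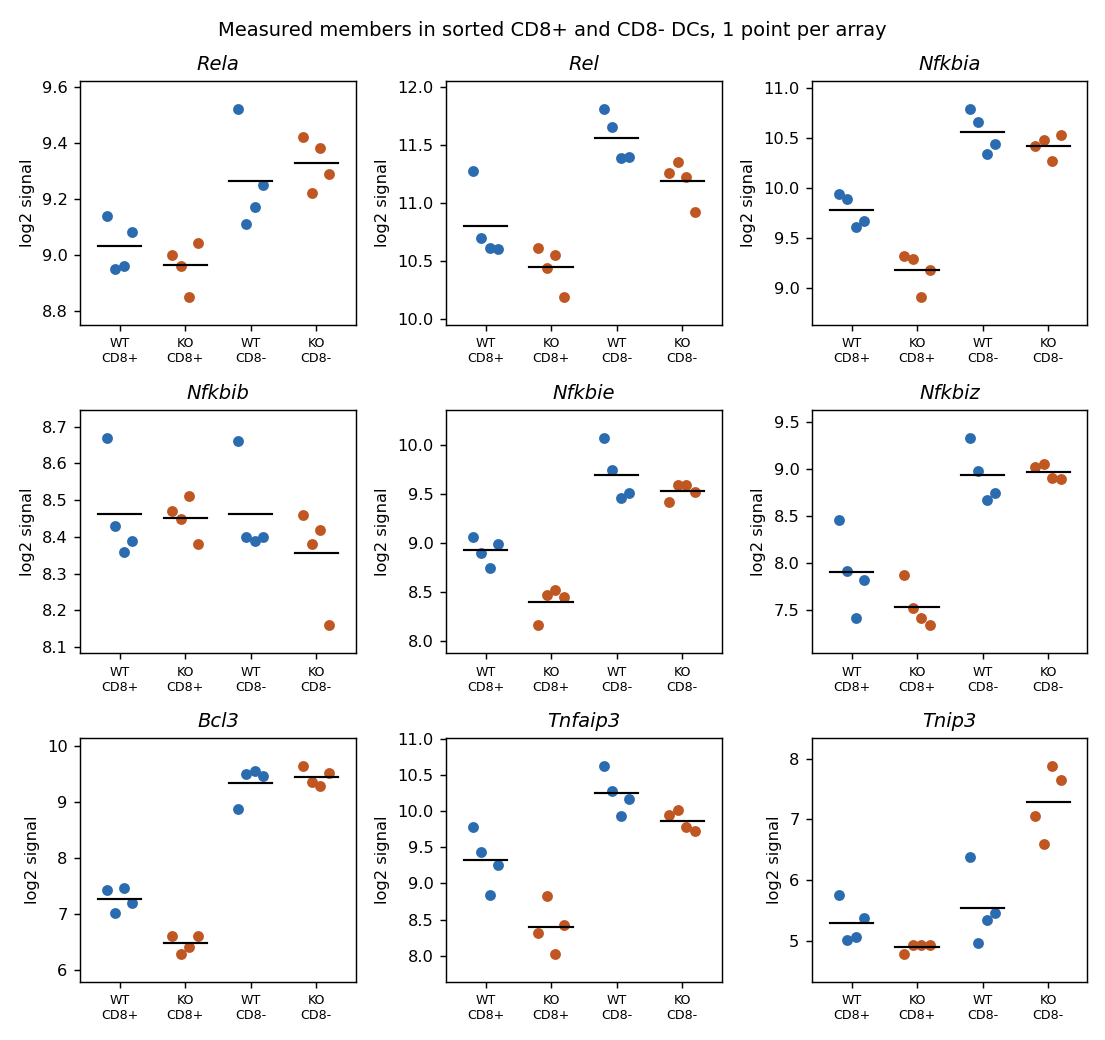
Log2 signal (vertical axis) of the 9 measured members in the 4 sorted groups (horizontal axis, KO for Mst1/2-KO), with 1 point per array in replicate order and a bar at each group mean. Bcl3 and Nfkbia stand in 2 separate sets of points in CD8+ DCs, and Tnip3 is high in Mst1/2-KO CD8- DCs alone of the 4 groups (6.59 to 7.88).

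The calls of Tnfaip3 and Nfkbia depended on single arrays. Tnfaip3 lost its call without WT CD8+ replicate 1 (adjusted p = 0.0755) or 2 (0.0721) or without Mst1/2-KO CD8+ replicate 1 (0.0667), 3 (0.0956) or 4 (0.0645), and in a fit of these 2 groups alone (0.0981). Nfkbia lost it when WT CD8+ replicate 1 (0.0519), WT CD8+ replicate 2 (0.0512) or Mst1/2-KO CD8+ replicate 3 (0.0586) was left out, and Bcl3 kept its call in every case (adjusted p up to 0.0385). With any of these 3 arrays left out, Bcl3 was the 1 member called.

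WT replicate 1 stood above its group: it was the highest array for 8 of the 9 members in WT CD8+ DCs and for 8 of 9 in WT CD8- DCs. A list of 14 immediate-early and heat-shock genes, known to respond to cell isolation, had a mean that was also highest in these arrays (10.18 against 9.54 to 9.80 in CD8+ and 10.50 against 10.27 to 10.34 in CD8- DCs). With both arrays left out, a setting chosen after the data were seen, 4 members were called in CD8+ DCs: Tnfaip3 (-0.77, adjusted p = 0.0469), Nfkbia (-0.55, 0.0326), Nfkbie (-0.48, 0.0392) and Bcl3 (-0.74, 0.00472). The uncalled members shrank in that setting, Rel from -0.35 to -0.19, Nfkbiz from -0.37 to -0.18 and Tnip3 from -0.39 to -0.24, and Nfkbib turned from -0.01 to 0.06. Without WT CD8+ replicate 1 alone, Tnfaip3 (-0.77, limma adjusted p = 0.0755) and Nfkbia (-0.55, 0.0519) changed as much but were not called. The CD8- array enters this comparison only through the shared estimate of spread. Between the genotypes the mean of those 14 genes ranged from 9.54 to 10.18 in WT and from 9.56 to 9.89 in Mst1/2-KO CD8+ DCs, and 0 of them were called by limma. Its part in the changes was not tested. Of 6 pan-DC markers, 1 fell, Ccr7, the chemokine receptor of migrating mature DCs (-2.34 ± 0.30, limma adjusted p = 0.000423). Of 9 CD8- DC markers, 1 rose, Itgam, 4 had an unadjusted p under 0.05, and the median was -0.27. The lists for plasmacytoid DCs, T, B and NK cells, macrophages and neutrophils had 0 genes called by limma, with 0 or 1 at an unadjusted p under 0.05 in each.

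The rest of the pathway in CD8+ DCs was described by lists of genes, chosen like the members with earlier results known. Among 20 measured kinases and adaptors that carry the signal to IKK, 0 were called and 2 had an unadjusted p under 0.05. Of 15 further inhibitors, 1 fell: Tnip1, another partner of the Tnfaip3 protein (7.27 in WT and 6.65 in Mst1/2-KO, -0.62 ± 0.10, adjusted p = 0.00251). Of 24 measured target genes, 7 were called lower and 0 higher, while 22 were below 0 (median -0.52). Of the 24, 17 had an unadjusted limma p under 0.05, and the share of all genes under that threshold is not given here. The called genes were led by Ccl22 (-2.46 ± 0.22) and Ccl5 (-2.18 ± 0.15), chemokine genes, Gadd45b, a stress-response gene (-1.87 ± 0.18), and Il12b, a cytokine subunit gene (-1.81 ± 0.23). Of 11 receptors that feed the pathway, Tnfrsf4 (-0.97 ± 0.15) and Tnfrsf1b, a receptor of TNF (-0.75 ± 0.12), fell. In the non-canonical arm, which works through Relb and Nfkb2, 4 of 8 measured genes fell, Relb by -0.86 ± 0.14, Cd40 by -0.62 ± 0.11, Nfkb2 by -0.51 ± 0.07 and Birc3 by -0.48 ± 0.09.

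The same comparison was made in CD8- DCs. Tnip3 was 3.38-fold higher in Mst1/2-KO than in WT CD8- DCs and was the 1 member called, where 3.9% of all genes were called higher and 6.68% in either direction. The other 8 members lay between -0.38 and 0.11, and the median of the 9 was -0.10 (-0.04 without WT CD8- replicate 1 or without Mst1/2-KO CD8- replicate 4). Tnip3 was at 6.38, 4.97, 5.34 and 5.46 in WT and at 7.05, 6.59, 7.88 and 7.65 in the Mst1/2-KO replicates 1 to 4. All 4 Mst1/2-KO arrays were above the highest WT array, which was replicate 1 (1.76 ± 0.28, adjusted p = 0.000807 from limma). Without replicate 1 of both WT groups the change was 2.04 (adjusted p = 7.3e-05).

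Rel lay at 11.39 to 11.81 in WT and at 10.92 to 11.35 in Mst1/2-KO CD8- DCs. Its groups did not overlap, and the change of -0.38 ± 0.15 was not called (limma adjusted p = 0.164), although it was with the replicate number as a block (0.0377). Of the 9 members, 2 had groups apart, where 12% of all genes did so. Tnfaip3 differed by -0.38 (95% interval -0.78 to 0.02), Nfkbie by -0.17 (-0.42 to 0.08), Nfkbia by -0.13 (-0.37 to 0.11), Nfkbib by -0.10 (-0.29 to 0.09), Nfkbiz by 0.03 (-0.35 to 0.42), Rela by 0.06 (-0.12 to 0.25) and Bcl3 by 0.11 (-0.19 to 0.41). None of these 7 was called, and the widest intervals were those of Tnfaip3 and Nfkbiz.

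Markers of several cell types moved with genotype in CD8- DCs. Of the 8 plasmacytoid DC markers, 4 rose: Cox6a2 by 3.73 ± 0.17, Tcf4 by 1.08 ± 0.15, Bst2 by 1.06 ± 0.16 and Siglech by 0.68 ± 0.19. The mean of that list went from 7.24 (6.96 to 7.47) in WT to 8.15 (7.90 to 8.28) in Mst1/2-KO CD8- DCs. Of 9 macrophage and monocyte markers, 1 rose, Ly6c2 (1.94 ± 0.37), and 1 fell, Adgre1 (-1.05 ± 0.15). The mean of that list hides these opposite changes, at 8.28 (8.02 to 8.39) in WT against 8.38 (8.14 to 8.57) in Mst1/2-KO CD8- DCs. Of 10 CD8+ DC markers, 5 rose and 1 fell (mean 7.73, 7.49 to 8.01, against 8.09, 7.78 to 8.27), and of 9 CD8- DC markers 2 rose and 4 fell (8.76, 8.70 to 8.88, against 8.31, 8.16 to 8.45). Of 7 B cell markers, 3 fell (5.52, 5.37 to 5.72, against 4.93, 4.84 to 5.07). Of the 6 listed pan-DC markers, 1 fell, Ccr7 (-1.86 ± 0.30), and 0 rose. Of 7 T cell markers, 1 fell, Cd5 (-0.72 ± 0.14), and 0 rose. Of the 14 immediate-early and heat-shock genes, 13 were below 0, 6 had an unadjusted p under 0.05 and 0 were called by limma (mean 10.36, 10.27 to 10.50, in WT against 10.08, 9.89 to 10.32). The part of these markers in the members' values was not tested. In a bulk sample, fewer cells of a type and less RNA per cell cannot be told apart.

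In the rest of the pathway in CD8- DCs, 2 of 20 kinases and adaptors fell and 1 rose. These were Malt1, a protease of the CARD-BCL10 complex (-0.56 ± 0.12), the adaptor Traf2 (-0.45 ± 0.11) and Myd88, the adaptor of Toll-like receptors (0.31 ± 0.08). Of 15 further inhibitors, 3 fell and 1 rose: Tnip1 by -0.39 ± 0.10, Otulin by -0.33 ± 0.09, Itch by -0.32 ± 0.09 and, higher, Irak3 by 0.54 ± 0.15. Of the 24 target genes, 7 were called lower and 0 higher, where 618 of all 22180 genes were called lower. Of the 24, 22 were below 0 (median -0.43) and 14 had an unadjusted limma p under 0.05. The share of all genes under that unadjusted threshold is not given here. The called genes included Gadd45b (-0.99 ± 0.18), Ccl5 (-0.99 ± 0.15) and Tnf (-0.97 ± 0.17). Of the 11 receptors, 3 fell, among them Tlr7 (-1.07 ± 0.22), and 1 rose, Tlr4 (0.56 ± 0.11). Of the non-canonical genes, 4 of 8 fell and 1 rose, with Relb at -0.90 ± 0.14 and Birc2 at -0.65 ± 0.11.

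**Figure D2:**
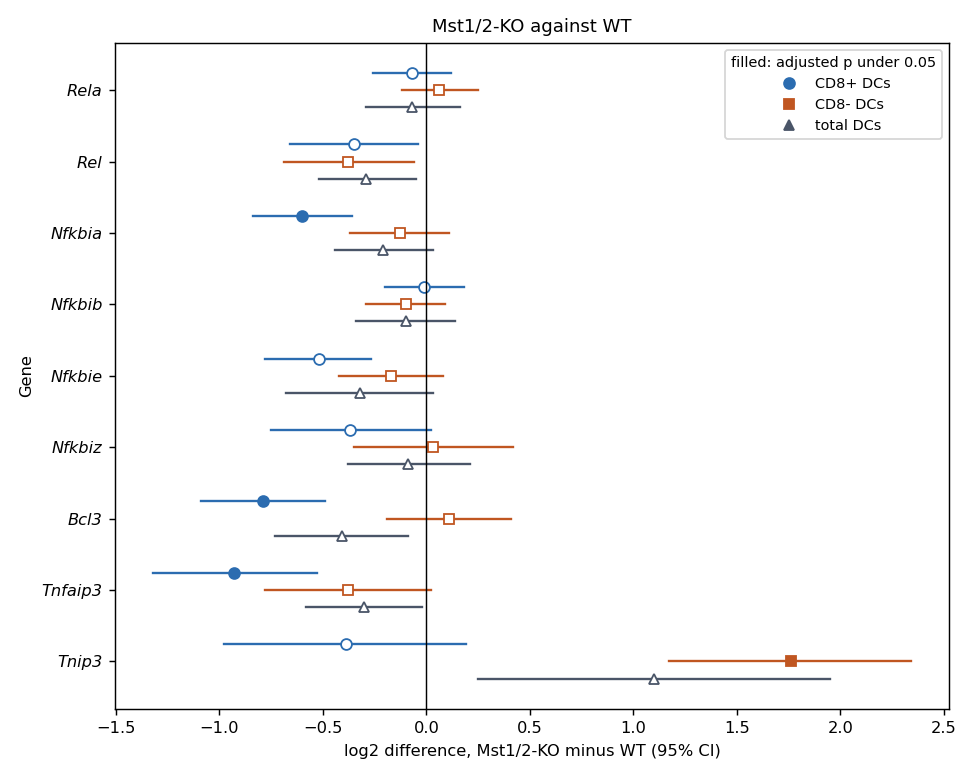
Change of each measured member (Mst1/2-KO minus WT, log2, horizontal axis) in CD8+, CD8- and total DCs, with its 95% interval from limma as a line and filled markers for adjusted p under 0.05. Tnfaip3, Bcl3 and Nfkbia are filled on the low side in CD8+ DCs, and Tnip3 is filled on the high side in CD8- DCs.

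Whether the genotype effect differs between the subsets was tested directly, over the same 16 arrays. Tnip3 was the 1 member called, with an effect 2.15 ± 0.39 higher in CD8- than in CD8+ DCs (adjusted p = 0.0149 from limma), where 0.338% of all genes were called higher and 0.559% in either direction. The call held without each of the 16 arrays (adjusted p up to 0.0403). Bcl3 differed by 0.90 ± 0.20 with an adjusted p of 0.0547, just outside the threshold. It was called under quantile (adjusted p = 0.0321) and cyclic loess normalization (0.0486), with genes above the median gene only (0.0391), with a mean-variance trend (0.0397), and without WT CD8+ replicate 2 (0.0408) or WT CD8- replicate 1 (0.035). Under the remaining alternatives, the replicate block among them, Bcl3 was not called. Its difference was 0.74 without WT CD8- replicate 1. Without replicate 1 of both WT groups it was 0.69 and not called (limma adjusted p = 0.0611). For Nfkbia the difference of effects was 0.47 ± 0.16 (adjusted p = 0.281) and for Tnfaip3 0.55 ± 0.27 (0.564). Neither fall was therefore shown to differ between the subsets. For Rel the 2 effects differed by -0.03 (95% interval -0.47 to 0.42).

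The next comparison set CD8+ against CD8- DCs within a genotype. In WT cells, 6 of 9 members were called lower in CD8+ than in CD8- DCs and 0 were called higher. The median change was -0.78 against 0.02 over all genes. Of all genes, 21% were called and 10% called lower. Bcl3 was 4.19-fold lower in CD8+ DCs, with 7.01 to 7.46 there and 8.87, 9.49, 9.55 and 9.46 in the WT CD8- replicates 1 to 4. The subsets stood far apart, although CD8- replicate 1 lay below the other CD8- arrays (-2.07 ± 0.14, adjusted p = 4.88e-09 from limma).

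Smaller changes were called for Nfkbiz, Tnfaip3, Nfkbia, Nfkbie and Rel. Nfkbiz was 2.04-fold lower in WT CD8+ DCs, at 7.42 to 8.46 against 8.67 to 9.33 in CD8- DCs (-1.03 ± 0.18, limma adjusted p = 0.000358). Tnfaip3 was 1.88-fold lower, with 8.84 to 9.78 against 9.93 to 10.62 (-0.91 ± 0.19, limma adjusted p = 0.00148). Nfkbia (-0.78 ± 0.11, limma adjusted p = 5.11e-05) and Nfkbie (-0.78 ± 0.12, limma adjusted p = 9.65e-05) differed by about the same amount. Rel, the 1 subunit gene called, was 1.70-fold lower (-0.77 ± 0.15, limma adjusted p = 0.000854), at 10.60 to 11.28 against 11.39 to 11.81. For these 6 genes the subsets did not overlap, where 22.4% of all genes were apart. Rela (-0.23 ± 0.09, adjusted p = 0.08) and Tnip3 (-0.24 ± 0.28, adjusted p = 0.651) were not called, and Nfkbib differed by 0.00 (95% interval -0.19 to 0.19). Rela was called under cyclic loess normalization (adjusted p = 0.0245), with genes above the median gene only (0.0488) and without WT CD8- replicate 2 (0.0453).

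In Mst1/2-KO cells, 8 of 9 members were called lower in CD8+ than in CD8- DCs and 0 were called higher. The median was -1.25 against 0.03 over all genes, of which 9.3% were called lower and 19.2% called. Bcl3 was 7.82-fold lower (6.29 to 6.61 against 9.28 to 9.64, adjusted p = 5.84e-11 from limma). Tnip3 was 5.24-fold lower (4.79 to 4.94 against 6.59 to 7.88, adjusted p = 3.67e-06 from limma). Tnfaip3 was lower by -1.46 ± 0.19, Nfkbiz by -1.43 ± 0.18, Nfkbia by -1.25 ± 0.11, Nfkbie by -1.13 ± 0.12, Rel by -0.74 ± 0.15 and Rela by -0.36 ± 0.09 (limma adjusted p from 2.05e-07 to 0.00648). The subsets of these 8 genes did not overlap, against 21.9% of all genes, and Nfkbib differed by 0.10 (95% interval -0.09 to 0.29). The 2 genotypes are set side by side without a test here, and the test of the difference is the one above.

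**Figure D3:**
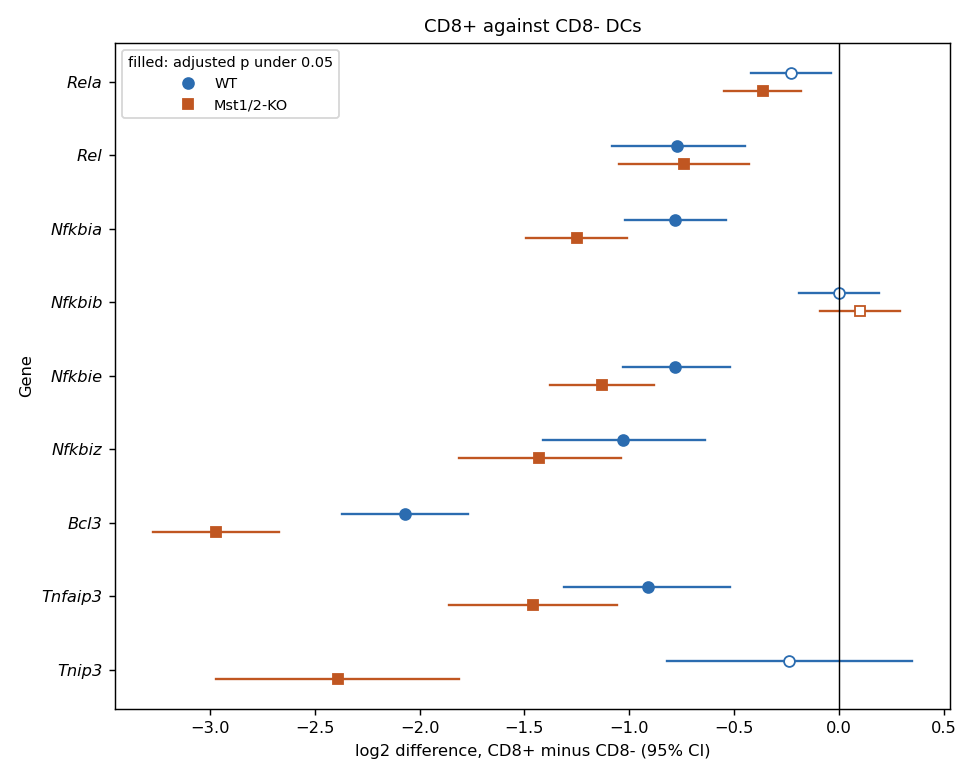
Difference of each measured member between the subsets (CD8+ minus CD8- DCs, log2, horizontal axis) in WT and Mst1/2-KO mice, with 95% intervals from limma as lines and filled markers for adjusted p under 0.05. Nfkbib lies at 0 in WT cells, and Bcl3 is the farthest below 0 in both genotypes (-2.07 and -2.97).

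Other genes of the pathway differed between WT subsets in both directions. Of 20 kinases and adaptors, 6 were lower in CD8+ DCs, led by Malt1 (-1.32 ± 0.12) and Traf2 (-1.08 ± 0.11), and 1 was higher, Sharpin, a part of the linear ubiquitin ligase (0.57 ± 0.10). Of 15 further inhibitors, 7 were lower and 3 higher. Irak3, a brake on Toll-like receptor signals (-1.10 ± 0.15), and Nfkbid, another nuclear IkB gene (-1.06 ± 0.23), were lower, and Pdlim2, linked to the breakdown of nuclear RelA, was higher (0.61 ± 0.13). Of 24 target genes, 10 were lower, with Ptgs2, a prostaglandin synthase gene, at -4.45 ± 0.28, and 5 were higher, with Ccl22 at 2.71 ± 0.22 and Il12b at 2.48 ± 0.23. Of 11 receptors, 6 were lower, with Tlr7 at -4.86 ± 0.22 and Tlr1 at -2.54 ± 0.10, and 1 was higher. Of 8 non-canonical genes, 4 were lower, with Relb at -1.47 ± 0.14, and 1 was higher.

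Markers of other cells moved with the subset as well. Of 8 plasmacytoid DC markers, 3 were lower in WT CD8+ DCs and 1 was higher, at 6.67 (6.58 to 6.79) against 7.24 (6.96 to 7.47). In WT cells the mean of the macrophage and monocyte markers was 6.94 (6.82 to 7.07) in CD8+ and 8.28 (8.02 to 8.39) in CD8- DCs, with 7 of 9 called lower in CD8+ DCs. The T cell markers were at 4.58 (4.45 to 4.68) against 5.68 (5.28 to 6.16), with 7 of 7 called lower, and the B cell markers at 4.59 (4.57 to 4.64) against 5.52 (5.37 to 5.72), with 4 lower and 1 higher of 7. Of 5 NK cell markers, 4 were lower, at 4.42 (4.39 to 4.47) against 5.20 (4.84 to 5.99). Of the 14 immediate-early and heat-shock genes, 8 were lower in CD8+ DCs, at 9.82 (9.54 to 10.18) against 10.36 (10.27 to 10.50). In Mst1/2-KO cells, where Tnip3 was lower in CD8+ DCs, 5 of 8 plasmacytoid DC markers were also lower, at 6.64 (6.56 to 6.69) against 8.15 (7.90 to 8.28). So were 8 of 9 macrophage and monocyte markers, at 6.88 (6.64 to 7.21) against 8.38 (8.14 to 8.57), 7 of 7 T cell markers and 6 of the 14 immediate-early and heat-shock genes. The part of these markers in the lower levels of the members was not tested.

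Likeness was measured over the 16 sorted arrays as the root mean square difference after centring each gene on its own mean, for the 3 members with the widest group means. These were Bcl3 (a range of 2.97), Tnip3 (2.39) and Tnfaip3 (1.84). Closest to Bcl3 were Cers6 (0.25), Elk3 (0.28) and BE692007 (0.28), against a median of 1.33 over all genes. For Tnip3 the closest genes were Plxdc2 (0.36), Pros1 (0.36) and Ccr1 (0.37), against a median of 1.02. The genes closest to Tnfaip3 were Casp4 (0.21), Rgs1 (0.24) and Tnfrsf1b (0.26), against a median of 0.77. These genes share arrays and groups with the members, and the measure is a description.

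In total DCs, which hold both subsets, 0 of 9 members were called by limma, 4 had an unadjusted p under 0.05 (13.2% of all genes did), and 0.848% of all genes were called. Tnip3 was at 5.49, 4.65, 6.07 and 4.78 in WT and at 6.05, 7.13 and 5.86 in Mst1/2-KO arrays. The groups overlapped at WT replicate 3, and the change was 1.10 ± 0.38 (adjusted p = 0.236 from limma). Bcl3 lay at 8.10, 8.38, 8.75 and 8.55 in WT and at 8.03, 7.96 and 8.12 in Mst1/2-KO arrays, with 1 WT array inside the Mst1/2-KO range (-0.41 ± 0.14, adjusted p = 0.247 from limma). Rel (-0.29 ± 0.10, adjusted p = 0.262) and Tnfaip3 (-0.30 ± 0.13, adjusted p = 0.352) had groups that did not overlap, which makes 2 of 9 members where 13.8% of all genes were apart.

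The remaining 5 members in total DCs differed by -0.32 (Nfkbie), -0.21 (Nfkbia), -0.10 (Nfkbib), -0.09 (Nfkbiz) and -0.07 (Rela), each with a 95% interval that held 0. WT replicate 3 was the highest WT array for 9 of 9 members, and its mean over the immediate-early genes was 10.26 against 9.99 in each of the other WT arrays. Without it, 0 members were called and Tnip3 differed by 1.37 (adjusted p = 0.117), and the change of Nfkbie went from -0.32 to -0.17. Over the rest of the pathway, 4 of 24 target genes were called lower, with Ccl5 at -1.49 ± 0.15 and Il12b at -1.41 ± 0.20. Of the 24, 22 were below 0 (median -0.41) and 12 had an unadjusted limma p under 0.05. The non-canonical gene Birc2 (-0.74 ± 0.09) and the receptor gene Tlr7 (-1.69 ± 0.27) were the only called members of their lists, and 0 of the kinases and further inhibitors were called. The CD8- DC markers had a mean of 7.49 (7.26 to 7.67) in WT and 6.96 (6.65 to 7.19) in Mst1/2-KO arrays, and those of CD8+ DCs 9.25 (9.02 to 9.55) and 9.55 (9.50 to 9.57). Ccr7 (-1.53), the CD8- DC marker Cd4 (-2.20) and the macrophage marker Adgre1 (-1.47) were called lower. The part of these markers in the members' values was not tested.

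**Figure D4:**
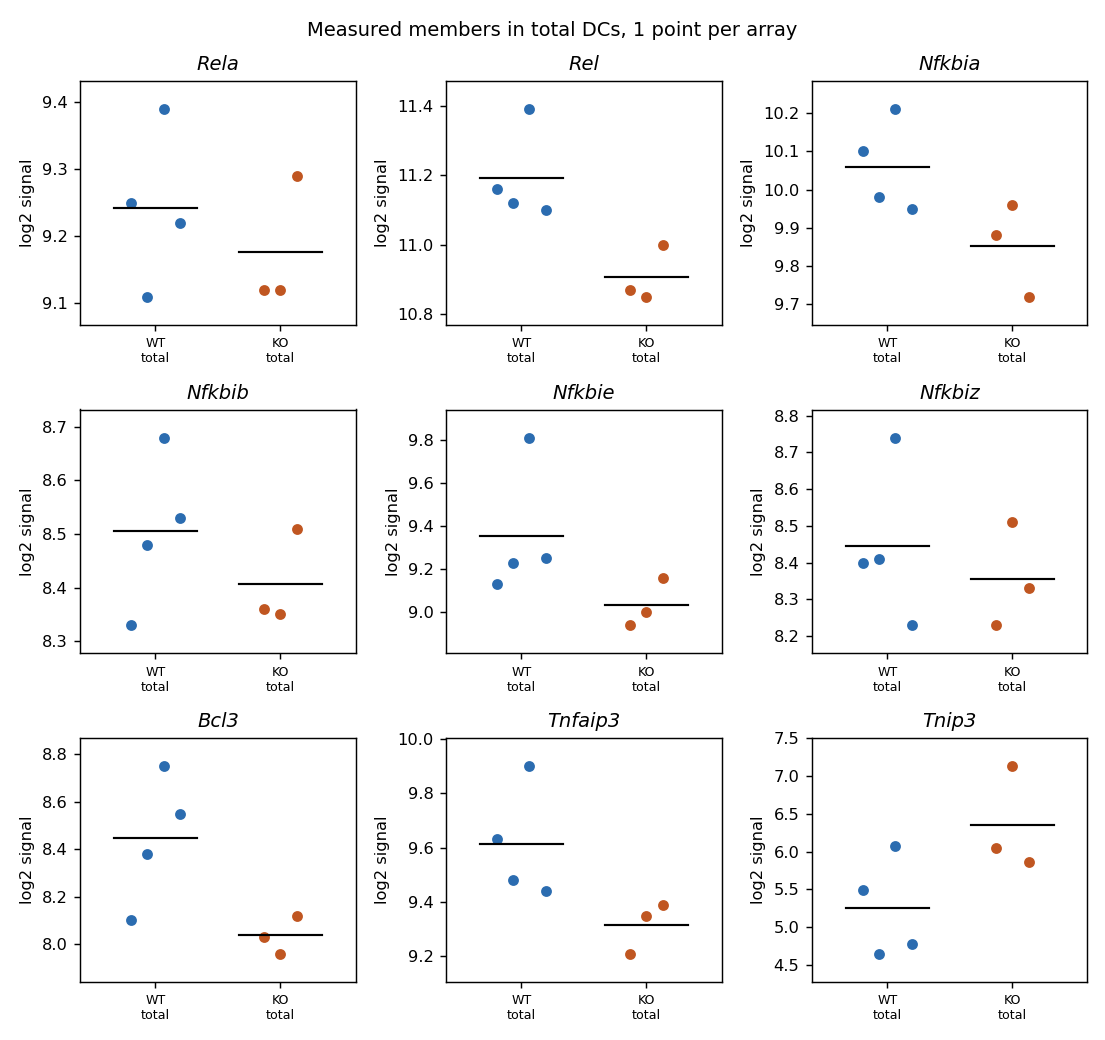
Log2 signal (vertical axis) of the 9 measured members in total DCs of WT and Mst1/2-KO mice (KO, horizontal axis), with 1 point per array in replicate order and a bar at each mean. WT replicate 3 is the top WT point in every panel, and 3 Mst1/2-KO points lie below all WT points for Rel and Tnfaip3.

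In experiment 1, arrays labelled Rag1-KO p38-KO were set against Rag1-KO arrays, all after anti-CD40. Here limma called 0 of 9 members and 0 of all genes (0%), while 3 members and 1866 genes (8.41%) had an unadjusted p under 0.05. Nfkbib was at 8.41, 8.54, 8.83 and 8.75 in Rag1-KO arrays and at 8.17, 8.19 and 8.15 in arrays labelled Rag1-KO p38-KO. All 3 of these were lower, and the change of -0.47 ± 0.10 was not called (adjusted p = 0.392 from limma). Tnfaip3 was at 9.42 to 9.69 against 9.24 to 9.42, with groups that touched without overlapping (-0.21 ± 0.08, limma adjusted p = 0.583). These were the 2 members whose groups were apart, where 7.48% of all genes were. Bcl3 was at 8.01, 8.12, 8.65 and 8.57 against 7.68, 7.79 and 8.14, which overlapped (-0.47 ± 0.19, adjusted p = 0.59). All 9 members were below 0 in this comparison, with a median of -0.16 against 0.00 over all genes. The median was -0.25 without Rag1-KO replicate 1 or p38-KO replicate 3, and -0.12 without p38-KO replicate 1. Without Rag1-KO replicate 4, or with a replicate block, 7 of 9 were below 0. The subunit genes Rela (-0.04, 95% interval -0.18 to 0.09) and Rel (-0.04, -0.26 to 0.19) were closest to 0. The neutrophil markers had a mean of 6.13 (5.80 to 6.81) in Rag1-KO arrays and 4.79 (3.95 to 5.27) in arrays labelled p38-KO. The macrophage and monocyte markers were at 7.87 (7.37 to 8.31) against 7.29 (7.09 to 7.51), with 8 of 9 below 0, and Ccr7 was at 9.93 (9.72 to 10.17) against 8.81 (8.68 to 9.04). Their part in the members' values was not tested.

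Experiment 2 has 1 array on one side of each comparison, so its spread was estimated jointly with experiment 1, on the assumption that a single array varies as much as the rest. After anti-CD40 the 2 Rag1-KO arrays gave 8.38 and 8.91 for Bcl3, above 7.79 in the non-stimulated array (0.86 ± 0.32, adjusted p = 0.307 from limma). Nfkbia was at 10.09 and 10.40 against 9.79 (0.46 ± 0.26, adjusted p = 0.498), and Nfkbie at 9.28 and 9.60 against 9.16 (0.28 ± 0.19, adjusted p = 0.591). Tnip3 ran the other way, at 6.29 and 6.06 against 6.71 (-0.53 ± 0.44, adjusted p = 0.673). Tnfaip3 (0.18), Nfkbiz (0.22), Rela (0.12), Nfkbib (0.06) and Rel (-0.19) differed by less. Limma called 0 of 9 members and 0.0361% of all genes, and 1 member, Bcl3, had an unadjusted p under 0.05, as did 13.1% of all genes. The 24 target genes had a median of 0.51 with 21 above 0 and 0 called. For 7 of 9 members both stimulated arrays lay on the same side of the non-stimulated one, as for 70% of all genes. All 10 CD8+ DC markers were above 0 (median 0.37) and 7 of 8 neutrophil markers were (median 0.48), among them S100a8 at 10.13 to 10.35 against 8.46. Their part in the members' values was not tested.

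The WT array after anti-CD40 was set against the 2 stimulated Rag1-KO arrays. Of the 9 members, 0 were called by limma, 0 had an unadjusted p under 0.05 against 14% of all genes, and 0.365% of all genes were called. The differences ran from -0.68 for Tnip3 (5.50 against 6.29 and 6.06) to 0.26 for Bcl3 (8.90 against 8.38 and 8.91). Nfkbia was at 10.23 against 10.09 and 10.40, inside the range of the Rag1-KO arrays, as were Nfkbib and Bcl3. The WT array lay outside that range for 6 of 9 members (Rela, Rel, Nfkbie, Nfkbiz, Tnfaip3 and Tnip3), as for 71.7% of all genes. Of the B cell markers, 3 were called higher in the WT array, as was 1 T cell marker, and the neutrophil markers had a mean of 5.19 there against 6.73 (6.58 to 6.87). Their part in the members' values was not tested. The 95% interval for Tnip3 ran from -1.67 to 0.32, so these 3 arrays leave its difference poorly measured.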

How the data were processed

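Total RNA of sorted DCs was turned into biotinylated cDNA with NuGEN kits, per the labels' protocols. The authors deposited log2 values, which run from 0.57 to 13.19, and the submitters' processing notes name RMA and Partek 6.6. The genome build is not given in the sources used here. Beyond the 5th decimal, digits are shared by the arrays of an experiment label, so levels were compared within a label only. Of 41155 probe sets, 23521 have exactly 1 gene symbol, and the one with the highest mean stood for each of 22180 genes.

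Every test used limma (version 3.58.1, R version 4.3.3), with 1 mean per group, lmFit and then eBayes, on separate sets of arrays: the 16 sorted arrays together, 7 total DC arrays, 7 arrays of experiment 1, and 11 of experiments 1 and 2. The fit was also run on simulated data with known changes, and its outcome is not given here. Those simulated arrays varied independently, without deviations shared by the genes of an array. Named were every member and up to 4 called genes per pathway list and comparison, those with the largest change. The members and lists were chosen with earlier results of these data known. Alternatives were quantile and cyclic loess normalization, a filter on dim genes, second probe sets, a mean-variance trend, only the groups compared, a replicate block and leaving out each array. Same-numbered WT CD8+ and CD8- arrays deviated together weakly (correlation 0.13 to 0.34 over genes). Whether the numbers pair arrays was not tested, and the main fits used no pairing.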

Additional observations from a re-analysis of the deposited data

Results flagged for a closer look

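The effect of Mst1/2-KO on Tnip3 differed between the subsets, by 2.15 (CD8- minus CD8+ DCs, adjusted p = 0.0149 from limma's test of the difference). Each of the 9 measured members in each group of 4 arrays gave 54 sets of values. In 6 of these, 1 array was flagged as apart from the other 3. For a single set chance gives about 1 in 20. The sets share arrays and are not independent, so no conclusion is drawn from their number. Rel was at 11.28 in WT CD8+ replicate 1 (others 10.60 to 10.70). Nfkbib was at 8.66 in WT CD8- replicate 1 (others 8.39 to 8.40), and in the same array Bcl3 was at 8.87 (others 9.46 to 9.55). In replicate 4 of the anti-CD40-stimulated Rag1-KO DCs of experiment 1, Rela was at 9.30 (others 9.11 to 9.13) and Tnip3 at 6.50 (others 5.56 to 5.68). Tnip3 was at 4.79 in Mst1/2-KO CD8+ replicate 1, with the others at 4.94.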

How the results depend on the processing

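Of the 19 calls of members, 17 held under every processing setting and without every single array; the exceptions were Tnfaip3 and Nfkbia in CD8+ DCs. Without single arrays, 1 to 4 members were called in CD8+ DCs and 1 to 2 for the difference between subsets. That difference had 2 called members under quantile normalization, cyclic loess, genes above the median gene only and a mean-variance trend. With a replicate block, 2 members were called in CD8- DCs, Rel being added (adjusted p = 0.0377), and the block changed no other call of a member. Same-numbered WT and Mst1/2-KO arrays had correlations of -0.07 to 0.09 in CD8+, 0.01 to 0.09 in CD8- and 0.05 to 0.13 in total DCs. For the Mst1/2-KO subsets they were 0.09 to 0.21, which overlaps the WT subsets, and for experiment 1 0.09 to 0.16. Arrays with different numbers were not compared, so these values do not settle which arrays are paired. No member has a second probe set.

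Sign changes, all of uncalled values, were these. Cyclic loess gave -0.02 for Nfkbiz in CD8- DCs, -0.05 for Nfkbib between WT subsets and -0.06 for Nfkbiz in WT against Rag1-KO DCs, where quantile normalization gave -0.03. The replicate block gave 0.00 for Rela and 0.07 for Tnip3 in experiment 1, 0.00 for Rela and -0.05 for Nfkbib after anti-CD40, and 0.00 for Bcl3 in WT against Rag1-KO DCs. Without replicate 1 of both WT sorted groups, Nfkbib was at 0.06 in CD8+ and Bcl3 at -0.05 in CD8- DCs. Their cause was not tested. Without single arrays, Nfkbib ran from -0.05 to 0.06 in CD8+ DCs, Nfkbiz and Bcl3 each from -0.05 to 0.17 in CD8- DCs, and Rel from -0.19 to 0.06 for the difference between subsets. Between WT subsets Nfkbib ran from -0.07 to 0.07 and Tnip3 from -0.43 to 0.04, and in total DCs Nfkbiz from -0.16 to 0.01. In experiment 1, Rela ran from -0.06 to 0.00, Rel from -0.09 to 0.02 and Tnip3 from -0.42 to 0.07. After anti-CD40, Rela ran from 0.00 to 0.25 and Nfkbib from -0.05 to 0.17. In WT against Rag1-KO DCs, Nfkbia ran from -0.17 to 0.14, Nfkbib from -0.17 to 0.05 and Bcl3 from 0.00 to 0.52.

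The counts of all called genes moved too. In CD8+ DCs 197 became 123 with only the groups compared, and for the difference between subsets 124 became 211 with the block. In total DCs 188 became 296 with genes above the median gene only and 108 with the block. After anti-CD40, 8 became 1, 18 and 0 with that filter, the trend and the block, and in WT against Rag1-KO DCs 81 became 4 with the filter and 0 with the block. Single arrays moved these counts as well. In CD8+ DCs the count was 114 and 126 without Mst1/2-KO replicates 3 and 4, and in CD8- DCs 1482 became 940 without WT replicate 2 and 918 without Mst1/2-KO replicate 4. The difference had 259 without WT CD8- replicate 1, 79 without WT CD8- replicate 2 and 80 without Mst1/2-KO CD8- replicate 4, and 253 without replicate 1 of both WT groups. Total DCs had 118, 124 and 89 without WT replicates 2, 3 and 4, and 53 and 39 without Mst1/2-KO replicates 1 and 2. Without Rag1-KO replicates 1 and 3 of experiment 2 the counts were 39 and 136 after anti-CD40 and 195 and 234 in WT against Rag1-KO DCs, where the members' median of -0.05 ran from -0.17 to 0.02. The number of arrays, 1 to 4 a group, limits what could be called.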
